A study of Homo sapiens with 2 samples.

Results

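The genes examined here are 10 members of the Krüppel-like factor (KLF) family: KLF1, KLF2, KLF3, KLF4, KLF6, KLF9, KLF10, KLF11, KLF13 and KLF16. They were chosen by name, with earlier results of these data known, from the 20037 protein-coding genes of the RefSeq table. Every deposited peak inside a listed gene or within 50 kb of it was counted. This gave 29 of 19671 peaks of the ERG list and 12 of 9161 peaks of the Vector list. The assay was chromatin immunoprecipitation and sequencing for H3K27ac, the acetylated form of lysine 27 on histone H3 that is found at active promoters and enhancers. The cells were F36P, a human cell line established from an erythroid leukaemia. The ERG library came from F36P cells carrying the retroviral construct MSCV-PIG-AM-ERG, which expresses the ETS-family transcription factor ERG, and its genotype label is ERG overexpression. The Vector library came from F36P cells carrying the empty construct MSCV-PIG, and its genotype label is WT. Cells of both libraries were kept in puromycin at 1 µg/ml for 4 days. The letters AM in the construct name are not explained in the sources used here. Each group held 1 library, so no difference below has a replicate check or a p-value, and all comparisons are between these 2 libraries.

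KLF proteins bind CACCC and GC-rich DNA elements through zinc fingers at their carboxy terminus, and differ in the activator or repressor domains that precede them. KLF1 is the erythroid activator of the adult beta-globin gene and of many other red cell genes. KLF3 is itself activated by KLF1 in erythroid cells and represses transcription through CtBP corepressors, whereas KLF9, KLF10, KLF11, KLF13 and KLF16 form a repressor group that can recruit SIN3 corepressors. KLF2, KLF4 and KLF6 are inducible activators with known roles in endothelial cells, monocytes and growth control. H3K27ac marks nucleosomes, which are often absent from the start site of an active promoter itself, so that acetylated nucleosomes tend to lie on either side of it.

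The ERG library had the higher background. The lowest local background among its peaks, taken as the genome-wide level, was 2.31 fragments, against 1.60 fragments in the Vector library. Their ratio of 1.44 is used below as the relative depth. Read totals are not given, so depth itself was not measured. The number of fragments at each summit and its local background were recovered from the deposited fold and −log10 p-value, and came out whole for all 19671 ERG-library and all 9161 Vector-library peaks (the recomputed −log10 p-value matched the deposited one to a relative tolerance of 0.0001). The local background is the peak caller's estimate for the surroundings of a peak, and the sources used here do not say whether an input library entered it. Of 13 erythroid marker genes fixed for a check of the cell line, 9 had a start-site peak in both libraries, TAL1, TFRC, NFE2 and HBG2 with the largest differences in covered length among them. Among the rest, ALAS2 was acetylated there in the ERG library alone, and ANK1, HBG1 and SLC4A1 in neither library. Of these named genes, NFE2, HBG2, ANK1, HBG1 and SLC4A1 were judged by gene record ends. Of 6 lymphoid and 6 fibroblast markers, 0 had a start-site peak in either library. Of these markers CD2, CD3D and PDGFRB had listed start sites, and the others were judged by gene record ends. LYZ and MPO of 6 granulocyte and monocyte markers and APOA1 of 6 hepatocyte markers had one in the ERG library alone, all 3 placed by gene record ends. A peak in a bulk library does not tell whether more cells carry the mark or whether each cell carries more of it.

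Start sites of 8 of the 10 KLF genes came from the RefSeq promoter table, which gives 250 bases before and 50 bases after each start. For KLF3 and KLF10 both ends of the gene record were used in place of a start site. Promoter windows of 5 genes are shown because they cover the 3 patterns of peaks found below, namely a start site under a peak in both libraries (KLF1), a start site with peaks within 1 kb but not over it, of both libraries (KLF6 and KLF9) or of the ERG library alone (KLF13), and a start site with no peak nearby (KLF2). They are written 5′ to 3′ on the gene's own strand from the RefSeq table of GRCh38.p14. Capitals mark matches, on either strand, to GATAA as a GATA factor motif, CCGGAA as an ETS motif, CCACCC as a CACCC box, CCCGCCC as a GC box and CCAAT as a CCAAT box. Some matches share bases, as a CACCC box and a GC box do in KLF13.
KLF1, chr19:12887152-12887451, minus strand: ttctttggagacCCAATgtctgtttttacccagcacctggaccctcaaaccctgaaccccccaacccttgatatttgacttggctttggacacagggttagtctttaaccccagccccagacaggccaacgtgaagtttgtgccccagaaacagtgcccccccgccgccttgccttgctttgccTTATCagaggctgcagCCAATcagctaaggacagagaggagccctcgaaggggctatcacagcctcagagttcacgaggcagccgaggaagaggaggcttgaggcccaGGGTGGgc
KLF6, chr10:3785160-3785459, minus strand: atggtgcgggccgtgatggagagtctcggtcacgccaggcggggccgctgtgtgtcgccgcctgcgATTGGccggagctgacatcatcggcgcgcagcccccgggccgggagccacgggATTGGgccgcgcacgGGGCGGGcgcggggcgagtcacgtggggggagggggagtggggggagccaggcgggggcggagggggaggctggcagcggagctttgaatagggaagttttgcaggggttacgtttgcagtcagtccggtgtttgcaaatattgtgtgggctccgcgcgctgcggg
KLF9, chr9:70414608-70414907, minus strand: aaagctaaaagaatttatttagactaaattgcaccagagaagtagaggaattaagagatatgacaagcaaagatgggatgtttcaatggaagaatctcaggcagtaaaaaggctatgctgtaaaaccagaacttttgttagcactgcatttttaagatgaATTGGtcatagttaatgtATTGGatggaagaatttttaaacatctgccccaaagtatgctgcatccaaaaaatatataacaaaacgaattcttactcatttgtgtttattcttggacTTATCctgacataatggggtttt
KLF13, chr15:31326585-31326884, plus strand: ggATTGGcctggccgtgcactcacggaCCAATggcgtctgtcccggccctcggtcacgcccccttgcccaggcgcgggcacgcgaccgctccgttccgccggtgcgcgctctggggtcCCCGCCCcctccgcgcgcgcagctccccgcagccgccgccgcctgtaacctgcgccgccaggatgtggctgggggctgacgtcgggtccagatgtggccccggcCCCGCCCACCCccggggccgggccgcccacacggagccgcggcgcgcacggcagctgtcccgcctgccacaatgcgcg
KLF2, chr19:16324576-16324875, plus strand: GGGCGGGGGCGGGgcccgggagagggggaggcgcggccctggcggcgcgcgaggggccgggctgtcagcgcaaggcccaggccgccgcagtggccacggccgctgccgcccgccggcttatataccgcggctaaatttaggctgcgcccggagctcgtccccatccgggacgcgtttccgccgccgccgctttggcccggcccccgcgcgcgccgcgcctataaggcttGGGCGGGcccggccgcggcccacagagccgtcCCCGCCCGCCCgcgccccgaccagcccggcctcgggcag

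The KLF1 window held a GATA match 62 bases upstream of the start site, CCAAT boxes 46 and 234 bases upstream and a CACCC box 42 bases downstream. Of all 22199 promoter windows of protein-coding genes, 18.6% held a GATA match, 34.7% a CCAAT box and 37.7% a CACCC box. A GATA match was also found in the KLF9 window, 27 bases downstream of the start, beside CCAAT boxes at 68 and 86 bases upstream. GC boxes, present in 42.3% of all windows, were found in all 7 windows of the other 6 genes, from 1 in KLF6 to 6 in KLF16 and in a KLF11 window. No ETS match lay in any of the 9 KLF windows, where 21.2% of all windows hold one, which says only that these letters are not in these 300 bases. The windows also differed in CpG content. KLF1 had 6 and KLF9 had 1 CpG dinucleotides, below the median of 11 over windows of genes with no start-site peak in either library. KLF2 had 49, KLF4 33, and the KLF11 windows 50 and 40, all above the median of 27 over windows of genes with a start-site peak in both libraries, although these 3 genes had no start-site peak. KLF6 had 33, KLF13 43 and KLF16 56 CpG dinucleotides.

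Most of the 10 KLF genes were acetylated near the start site in both libraries, and KLF13 in the ERG library alone. A peak within 1 kb of a start site was found in both libraries at 6 of the 10 genes (KLF1, KLF3, KLF6, KLF9, KLF10 and KLF16), where 31.1% of all protein-coding genes had one in both. KLF13 is 1 of the 4 KLF genes without a start-site peak in the Vector library, where the ERG library had one at 22.5% of all such genes. The counting interval of that 25% runs from 0.631 to 80.6% (exact Clopper-Pearson, 95%) and covers the share of all genes. KLF2, KLF4 and KLF11 had none in either library, against 53.1% of all genes. No KLF gene had a start-site peak in the Vector library alone. With a window of 500 bp, KLF9 counted as ERG library alone and KLF16 as neither, and with both ends of every gene record in place of start sites KLF16 counted as ERG library alone.

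**Figure D1:**
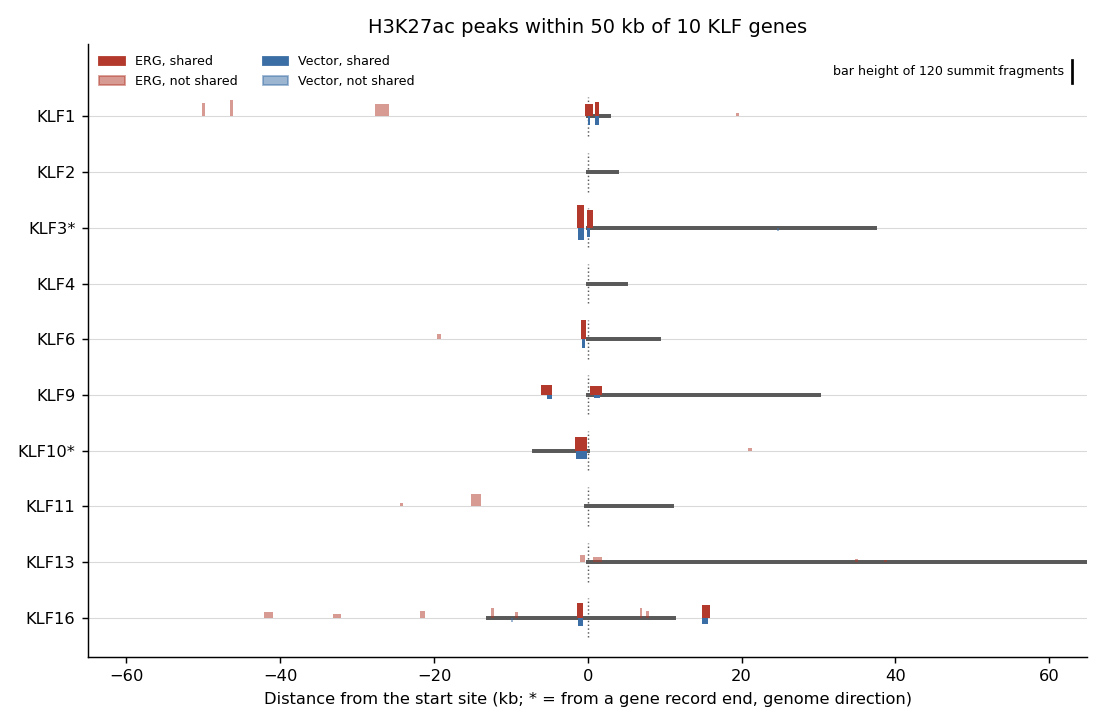
ERG-library peaks (red, above each line) and Vector-library peaks (blue, below) around 10 KLF genes, by distance from the start site in kb in the direction of transcription. Grey bars are gene records, the KLF13 record running on to the right. KLF3 and KLF10 are drawn from a gene record end in genome direction. Bar height is the number of fragments at the summit, and pale bars have no counterpart in the other library. Dark bars sit at the start sites of 6 genes and at 2 further places, near KLF9 and KLF16, while 19 of the 29 ERG-library bars are pale, and KLF2 and KLF4 have none.

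KLF1, on chromosome 19 from 12884422 to 12887201 (hg38), carried the same 2 peaks in both libraries, with the lowest ratios of summit fragments among the shared KLF peaks. The first spanned the start site at 12887201, from 12886555 to 12887555 in the ERG library and from 12886862 to 12887209 in the Vector library. It had 62 fragments at the ERG-library summit and 46 at the Vector-library summit, the summits lying 153 and 114 bp inside the gene. The second lay further inside the gene, at 12885689 to 12886229 in the ERG library and 12885698 to 12886234 in the Vector library, with 72 fragments against 46. Divided by the depth ratio, the fragment ratios (ERG over Vector) were 0.933 (exact conditional 95% interval 0.627 to 1.40) and 1.08 (0.739 to 1.61). Both intervals include 1. The local background was high in both libraries, 17.6 and 17.2 fragments in the ERG library against 13.2 and 13.0 in the Vector library, and after depth scaling the background ratios were 0.924 and 0.915.

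Beyond the gene, the neighbourhood of KLF1 held 4 ERG-library peaks and 0 Vector-library peaks. The widest lay at 12913027 to 12914895, 1869 bp wide and 25.8 kb upstream of the start, inside SYCE2, with 65 fragments over a background of 18.5. The strongest by deposited score lay 46.1 kb from KLF1, at 12933329 to 12933703, within 1 kb of the start of FARSA, a tRNA synthetase subunit gene, with 85 fragments. A further peak with 70 fragments lay at 12936931 to 12937417, and a weak one with 19 fragments at 12867487 to 12867909 inside MAST1. RTBDN, MAST1, DNASE2, GCDH, SYCE2 and FARSA share this window, so these 4 peaks cannot be assigned to KLF1. Scaled down by the depth ratio, the MAST1 peak had a −log10 p-value of 3.78, below the lowest of the Vector list (3.98), while the other 3 stayed above it. No Vector-library signal at these places enters this scaling.

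KLF3, on chromosome 4 from 38664199 to 38701517, had its acetylation at the lower-coordinate end of the record in both libraries, and was the KLF gene with more peaks in the Vector library than in the ERG library. The peak across that end ran from 38664086 to 38664881 in the ERG library and from 38664163 to 38664532 in the Vector library, with 92 against 48 fragments. Beside it, at 38662777 to 38663683 in the ERG library and 38662996 to 38663728 in the Vector library, lay the peak with the most fragments of all KLF peaks in each library, 119 against 60. Their depth-scaled ratios were 1.33 (0.927 to 1.92) and 1.37 (0.999 to 1.91), intervals that include 1. The local background was 29.3 and 28.0 fragments in the ERG library against 11.1 and 10.8 in the Vector library, and its scaled ratios of 1.82 and 1.79 exceeded those of the summits. A further Vector-library peak, at 38688788 to 38689079 inside the gene, had 15 fragments over a background of 2.27 and no ERG-library peak within 23.9 kb. At 292 bp it was close to the narrowest peak of its list, 288 bp.

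Of the repressor group, KLF9 showed the largest ratios of summit fragments. KLF9, a hormone-responsive factor, lies on chromosome 9 from 70384604 to 70414657. A peak beginning 298 bp inside the gene in the ERG library (70412822 to 70414359) and 807 bp inside it in the Vector library (70413087 to 70413850) had 48 against 17 fragments. It also lay within 1 kb of the starts of the non-coding genes KLF9-DT and LOC124900273, so it cannot be assigned to KLF9 alone. An upstream peak 4.60 kb outside the gene, at 70419252 to 70420780 in the ERG library and 70419339 to 70419918 in the Vector library, had 53 against 21 fragments. Depth-scaled ratios were 1.96 (1.10 to 3.63) and 1.75 (1.04 to 3.05), so both counting intervals lay above 1. The local background was 7.66 and 9.23 fragments in the ERG library against 3.06 and 3.37 in the Vector library. Scaled likewise, the background ratios were 1.74 and 1.90, the latter above the summit ratio of the same upstream peak. Both peaks were also wider in the ERG library, at 1538 and 1529 bp against 764 and 580 bp.

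KLF13 carried ERG-library peaks on both sides of its start site, where the Vector list held none. It lies on chromosome 15 from 31326835 to 31435665, and in mouse its loss is known to disturb the maturation of erythroblasts. The ERG library had a peak 411 bp upstream of the start, at 31325846 to 31326424 with 36 fragments over a background of 6.67, and one beginning 732 bp downstream, at 31327567 to 31328748 with 28 fragments over 6.73. The nearest Vector-library peak was 335 kb from the start site. Scaled to the depth of the Vector library, the 2 peaks would hold 25 and 19 fragments, with −log10 p-values of 11.3 and 6.94, above the lowest of the Vector list (3.98). They were also kept when divided by 2.07, the median ratio of fragments at all shared peaks. Both scalings use ERG-library values alone and do not measure the Vector-library signal at these places. The ERG library had 2 more peaks inside the gene, at 31361640 to 31362010 with 17 fragments and 31365421 to 31365742 with 13. The last of these fell below the lowest Vector-library −log10 p-value after division by 1.44, and both did after division by 2.07.

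KLF16, on chromosome 19 from 1852399 to 1876536, had the most peaks of any KLF gene, 9 of the ERG library against 3 of the Vector library, in a window crowded with other genes. Its start-site peak lay 602 bp upstream of the listed start in the ERG library (1864181 to 1864947) and 667 bp upstream in the Vector library (1864246 to 1864889), with 76 against 41 fragments, a scaled ratio of 1.28 (0.867 to 1.93). Inside the gene record the ERG library alone had peaks at 1855650 to 1855949 (36 fragments), 1856461 to 1856776 (49), 1872647 to 1873031 (28) and 1875788 to 1876179 (48). The last of these lies within 1 kb of the upper-coordinate record end, the upstream end on the minus strand. It counts as away from a start site because the only listed start is at 1863579. A Vector-library peak without counterpart, at 1873242 to 1873606 with 22 fragments, lay 210 bp from the peak ending at 1873031, so the same stretch was called in both libraries at places that did not overlap. In the flanks, the shared peak at 1847628 to 1848779 (ERG library) and 1847888 to 1848704 (Vector library) sits at the start of REXO1, with 66 against 34 fragments. ERG-library peaks at the starts of ABHD17A (1884759 to 1885391, 33 fragments) and of ADAT3 and SCAMP4 (1904542 to 1905737, 28 fragments) lay at those neighbours, and 1 more lay between genes at 1895736 to 1896705 with 21 fragments.

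The TGF-beta-inducible pair KLF10 and KLF11 differed from each other. KLF10, on chromosome 8 from 102648784 to 102655725, had a broad peak just inside its upper-coordinate end in both libraries, at 102654108 to 102655665 in the ERG library and 102654203 to 102655609 in the Vector library. It held 72 against 45 fragments, a scaled ratio of 1.11 (0.753 to 1.65), and at 1407 bp it was the widest Vector-library peak of the 12 and nearly as wide as the 1558 bp ERG-library peak. An ERG-library peak 20.8 kb outside the gene, at 102676533 to 102677058, had 16 fragments and no counterpart. KLF11, on chromosome 2 from 10043550 to 10054836, had no peak at either of its 2 listed start sites. Its window held 2 upstream ERG-library peaks, 1286 bp wide at 10028649 to 10029934 (61 fragments over 12.6) and 352 bp wide at 10019447 to 10019798 (15 fragments over 3.33). The wider one lay 13.9 kb from the nearer start site and within 1 kb of the start of the non-coding gene LOC112268412. The nearest Vector-library peak was 77.9 kb from a KLF11 start.

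Among the inducible activators, only KLF6 had peaks within 50 kb. KLF6, on chromosome 10 from 3775996 to 3785209, had a start-site peak just upstream of the gene in both libraries, at 3785490 to 3786095 in the ERG library and 3785516 to 3785967 in the Vector library. It had 100 against 46 fragments over a local background that was 3.46 against 2.30 times the genome level. Within each list its deposited score, the authors' own value, was the highest of the KLF peaks, 677 in the ERG list and 298 in the Vector list. The scaled ratio was 1.51 (1.05 to 2.18). An ERG-library peak with 26 fragments lay 19.1 kb upstream, at 3804320 to 3804810, with no counterpart. KLF2, on chromosome 19 from 16324826 to 16328685, had no peak within 50 kb in either library, and the nearest peaks were 94.8 kb from its start in the ERG library and 139 kb in the Vector library. KLF4, on chromosome 9 from 107484852 to 107489769, had none either. Its nearest peak overlapped between the libraries and lay 205 kb away in the ERG library and 206 kb in the Vector library, at 107283190 to 107284370 in the ERG library and 107283251 to 107284201 in the Vector library. A missing peak shows only that the threshold was not passed at this depth.

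**Figure D2:**
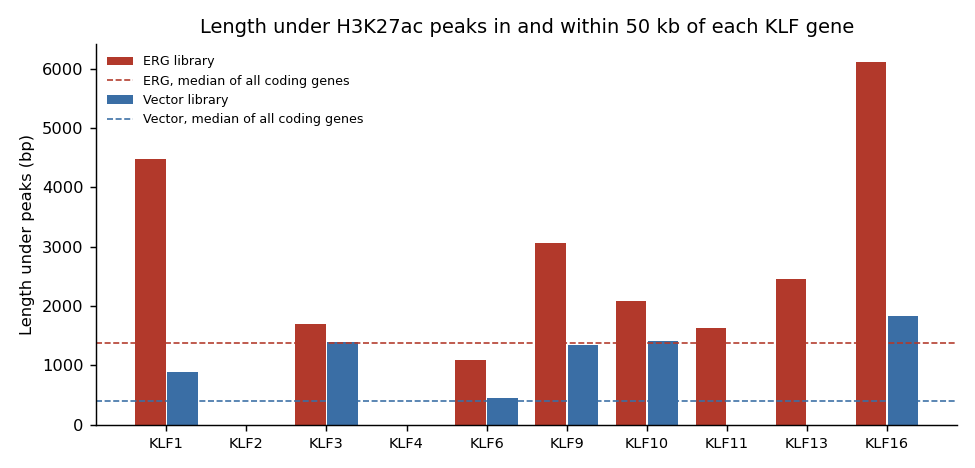
Length in bp under peaks inside each KLF gene or within 50 kb of it, ERG library (red, left) and Vector library (blue, right). Dashed lines are the medians over all protein-coding genes, 1376 bp in the ERG library and 404 bp in the Vector library. KLF16 (6111 against 1826 bp) and KLF1 (4480 against 885 bp) stand highest, and KLF2 and KLF4 are at 0 in both libraries.

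Covered length was greater in the ERG library at 8 of the 10 KLF genes and 0 in both libraries at KLF2 and KLF4, where 73% of all protein-coding genes had the greater covered length in that library. The order in the ERG library was KLF16 (6111 against 1826 bp in the Vector library), KLF1 (4480 against 885 bp), KLF9 (3067 against 1344 bp), KLF13 (2454 against 0 bp), KLF10 (2084 against 1407 bp), KLF3 (1703 against 1395 bp), KLF11 (1638 against 0 bp) and KLF6 (1097 against 452 bp). Per length of window, the covered share ran from 0% at KLF2 and KLF4 to 4.92% at KLF16 in the ERG library, and from 0% at KLF2, KLF4, KLF11 and KLF13 to 1.47% at KLF16 in the Vector library. KLF6 had the lowest share above 0, at 1.00% for the ERG library against 0.414% for the Vector library. KLF16 and KLF1 share their windows with 5 and 6 other coding genes, while KLF3, KLF4, KLF6 and KLF10 have none within 50 kb. The median difference (ERG minus Vector) over the 10 genes was 1157.5 bp, beside 801 bp over all genes. With a 10 kb window it was 231 bp. Without KLF16 it was 677 bp, the value of KLF10 on which the median of 9 genes then falls, so it rests on the gap between the middle values.

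**Figure D3:**
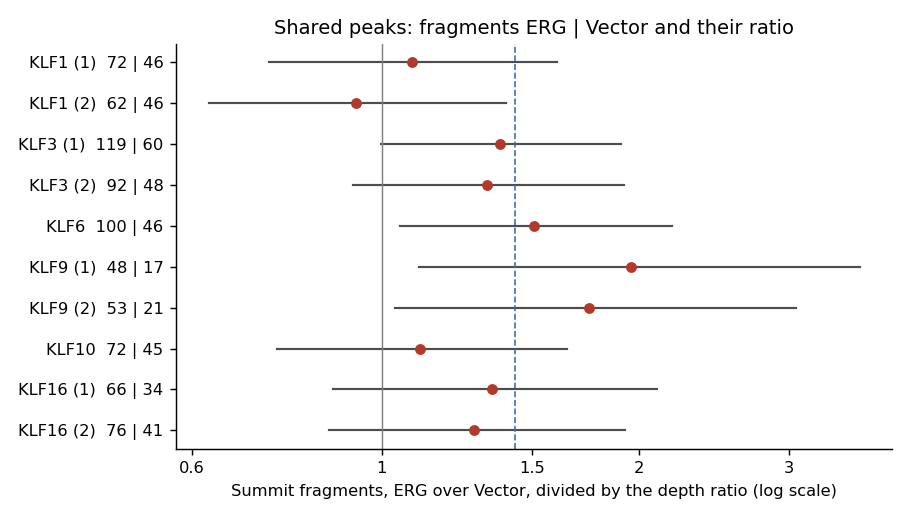
Fragments at the summit of the 10 shared KLF peaks, given as ERG and Vector numbers beside each name, and the ratio ERG over Vector divided by the depth ratio of 1.44 (points, log axis) with exact conditional 95% intervals (lines). The grey line is 1 and the dashed line the median of all 8092 shared pairs, 1.43. Points run from 0.933 at the KLF1 start site to 1.96 at KLF9.

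Over the 10 shared peaks, summit fragments in the ERG library exceeded those of the Vector library by a median factor of 1.34 after depth scaling, beside 1.43 over all 8092 shared pairs. The direction depends on the scaling. Against the genome background 9 of the 10 ratios were above 1, whereas against the median of all shared pairs 3 were, those of KLF6 (1.05) and KLF9 (1.37 and 1.22), and the KLF median was 0.933. On that second scale the KLF1 start-site peak had a ratio of 0.652 (0.438 to 0.977), an interval below 1, while the other 9 included 1. A scaled ratio above 1.5 was reached by 3 pairs, those of KLF6 and KLF9, where 43.5% of all pairs reached it. The 3 intervals above 1 on the background scale were those same pairs. The ratio of local backgrounds, divided by the depth ratio, had a median of 1.45 over the KLF pairs and 1.36 over all pairs. All 10 KLF peaks were wider in the ERG library, as were 92.1% of all pairs, with a median width ratio of 1.38 for KLF peaks and 1.52 for all pairs. The ERG library also had the higher background, and the part of depth in these widths was not tested.

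Most shared KLF peaks lay at start sites, and most unshared ones lay away from them and had fewer fragments. Without a Vector-library counterpart were 19 of the 29 ERG-library peaks, 65.5% (45.7 to 82.1), against 58.9% over the whole ERG list. Of the 12 Vector-library peaks 2 had no ERG-library counterpart, 16.7% (2.09 to 48.4), against 8.97% over the whole Vector list. Both counting intervals cover the share of all peaks. Within 1 kb of a KLF start site lay 10 ERG-library peaks, of which 2 were unshared, both at KLF13, and 8 Vector-library peaks, all shared. Over the whole lists 38% of ERG-library and 1.95% of Vector-library peaks within 1 kb of a coding start site were unshared. Away from any coding start site used here lay 15 ERG-library peaks, of which 14 were unshared, and 3 Vector-library peaks, of which 2 were, where the whole lists had 76.6% and 21.8%. Those 14 include the KLF16 peak at 1875788 to 1876179, near the upper-coordinate end of its record. For the ERG library the KLF shares of 20% (2.52 to 55.6) near start sites and 93.3% (68.1 to 99.8) away from them have intervals that cover those of the whole list. The unshared ERG-library peaks had a median of 28 fragments (13 to 85) and a median width of 487 bp, and the shared ones 72 fragments (48 to 119) and 954 bp. Over the whole ERG list these medians were 27 fragments and 486 bp for unshared peaks and 58 fragments and 946 bp for shared peaks. Scaled to the Vector depth, 16 of the 19 unshared ERG-library peaks stayed above the lowest −log10 p-value of the Vector list, where 92.3% of all such peaks did, and 12 did so after division by 2.07. As these scalings use ERG-library values alone, they do not tell why the Vector list lacks the peaks. With the ERG list cut to the length of the Vector list, 15 ERG-library peaks were left and 33.3% were unshared.

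**Figure D4:**
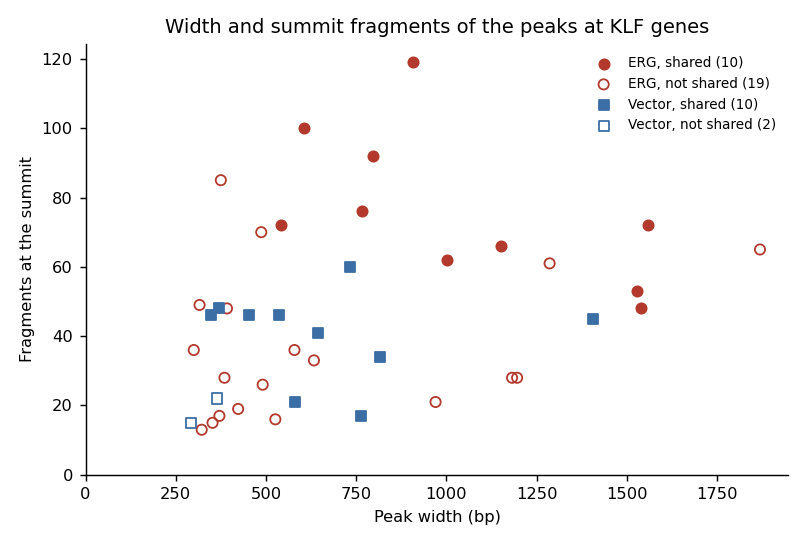
Width in bp and fragments at the summit of the 41 KLF peaks, circles for the ERG library and squares for the Vector library, filled where the peak has a counterpart in the other library. All 10 filled circles lie at 48 fragments or more, and the 19 open circles reach down to 13.

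Among the KLF genes with a listed start site, KLF1 was the one whose start base lay under a peak. Of 5 such genes with an ERG-library start-site peak, 1 had its start base covered, where 66.9% of all such genes did, and of 4 with a Vector-library start-site peak 1 had it covered, where 39.8% of all did. At KLF6, KLF9, KLF13 and KLF16 the nearest ERG-library peak began 281, 298, 411 and 602 bp from the start. The ERG-library peak covered all 300 bases of the KLF1 promoter window shown above, and the Vector-library peak 58 of them. None of the windows of the other genes overlapped a peak.

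The wider family and the partners of KLF factors were set beside the 10 genes as lists. Of 8 other KLF genes, KLF7 and KLF12 were acetylated at the start site in both libraries, KLF5 was so in the ERG library alone, and KLF8, KLF14, KLF15, KLF17 and KLF18 had none. KLF5 was 16.7% (0.421 to 64.1) of the 6 lacking a Vector-library start-site peak, beside 22.5% of all such genes. Of 9 genes of the related SP family, SP1, SP2, SP3 and SP4 had a start-site peak in both libraries, and SP5, SP6, SP7, SP8 and SP9 in neither. Over all protein-coding genes, 31.1% had one in both libraries and 53.1% in neither. The cofactor list held 12 genes, of which 8 had a start-site peak in both libraries, where 31.1% of all protein-coding genes had one in both. Among these 8 the largest differences in covered length were at FHL3, EP300, HDAC1 and CTBP1. CTBP1 and HDAC1 encode corepressor subunits and EP300 an acetyltransferase that deposits H3K27ac. Another 3 cofactor genes carried an ERG-library peak alone, the coactivator gene CREBBP and the corepressor genes HDAC3 and SIN3A. These 3 were 75% (19.4 to 99.4) of the 4 cofactor genes lacking a Vector-library start-site peak, an interval that covers the 22.5% of all genes. SIN3B was the other one, with none in either library. The median difference in covered length over the 12 genes was 1517.5 bp, beside 801 bp over all genes.

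Of 15 known KLF1 target genes, AHSP and E2F2 carried start-site peaks of both libraries, and 6 carried an ERG-library peak alone, including ICAM4 (4830 against 1674 bp covered), BCL11A (2371 against 0 bp), EPB42 (1693 against 349 bp) and ALAS2 (1093 against 0 bp). These lengths, and those below, take in the gene and 50 kb on either side. Peaks of other genes in that window were not set apart. The other 7 had no start-site peak in either library, although PKLR, the red cell pyruvate kinase gene, was covered over 3535 against 367 bp within 50 kb, ANK1 over 5305 against 2664 bp, DMTN over 3630 against 1427 bp and BCAM over 3292 against 1166 bp. BCL11A encodes a repressor of fetal globin genes, EPB42 a red cell membrane protein and ALAS2 the erythroid enzyme that opens heme synthesis. These 6 were 46.2% (19.2 to 74.9) of the 13 targets without a Vector-library start-site peak, and the interval covers the 22.5% of all genes. Of the 15 targets 2 had a start-site peak in both libraries and 7 in neither, where 31.1% and 53.1% of all protein-coding genes did. HBB, counted among the 6, has no start site in the promoter table, so its peak was placed by a gene record end. AHSP, ANK1, DMTN and SLC4A1 were likewise judged by gene record ends. In the route from the kinase ERK5 to MEF2 factors, which induces KLF2 and KLF4 in endothelial cells, both libraries had a start-site peak at MAP3K2, MAP2K5 and MEF2A, the ERG library alone at MAP3K3, MAPK7 and MEF2C, and neither library at MEF2D. Of the 3 genes with an ERG-library peak alone, MEF2C was covered over 4706 bp in the ERG library against 0 bp in the Vector library. MAP3K3 was covered over 6601 against 2104 bp and MAPK7 over 1906 against 0 bp. The median difference over the 7 route genes was 1848 bp, beside 801 bp over all genes. The share of 75% (19.4 to 99.4) among the 4 route genes lacking a Vector-library start-site peak equals that of the cofactor list, and its interval likewise covers 22.5%.

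**Figure D5:**
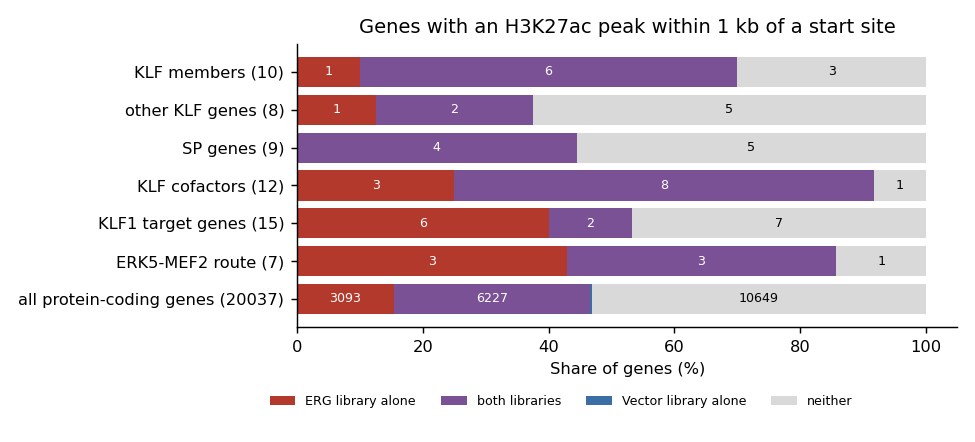
Share of genes in % with a peak within 1 kb of a start site in ERG alone (red), in both libraries (purple), in the Vector library alone (blue) or in neither (grey), with the number of genes in each segment. The 10 KLF genes have 1, 6, 0 and 3 genes in these classes, and all 20037 protein-coding genes 3093, 6227, 68 and 10649.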

How the data were processed

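Each library was deposited as a peak list of 10 columns in the MACS2 format. Bowtie2, MACS2, deepTools and hg38 are named in the submitters' processing notes, with no versions or settings. The deposited columns are a score, a fold over the local background, a −log10 p-value, a −log10 q-value (lowest 1.31 in the ERG and 1.32 in the Vector library) and the summit. Read totals are not part of these lists. Chromatin was fixed with 1% formaldehyde and digested with micrococcal nuclease, and 10 µg went into each pull-down, per the labels' protocols.

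Fragments were recovered with scipy 1.17.1, as the whole number whose Poisson tail and fold (pseudocount 1) match the deposited values. The calculation was tested on simulated data. Peaks shared at least 1 bp with a counterpart. Genes and start sites came from RefSeq GRCh38.p14, with listed start sites for 15842 of 20037 coding genes and record ends otherwise. No genome sequence was used, so exons are not given. The ERG and Vector lists held 698 and 221 peaks on alternate or unplaced sequences, which were not assigned to genes. Intervals cover counting error only. The KLF genes and lists were chosen with earlier results of these data known, and 2 genes of the lists are not reported here. All KLF peaks inside a gene or at its start are named, in the flanks the strongest per library and those at other genes. List genes are named for counts of 5 or fewer, otherwise the 4 of largest difference in covered length. Overlap, windows, score cuts, depth scaling and leaving out KLF16 were varied.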

Additional observations from a re-analysis of the deposited data

How the results depend on the processing

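Of 68 recomputed values under 15 settings, 53 stayed within 1.5 times the reported count or length, or inside its counting interval. For the median summit ratio the interval was that of the pooled fragments, 1.15 to 1.47. Some values could not move, such as the count of Vector-library peaks where only the ERG list was altered. The number of ERG-library peaks was 19 with a 10 kb window, 15 with only the better-scoring 50% of either list and 15 with an ERG list as short as the Vector one. In that shortened list 33.3% of them were unshared, and in the upper 50% the unshared share of Vector-library peaks was 0%. The median difference in covered length was 231 bp with a 10 kb window, 2332.5 bp with a 100 kb window, 589.5 bp in the upper 50%, 396.5 bp with the shortened ERG list and 677 bp without KLF16. The median summit ratio was 1.93 unscaled and reversed to 0.933 when scaled by all shared pairs, which follows from that scaling. In the upper 50%, with a 500 bp start-site window and with gene record ends, 2 genes rather than 1 had a start-site peak in the ERG library alone. Leaving out KLF16 and scaling peaks by 2.07 were chosen after seeing the data. For the other changes the cause was not tested. Of 79 values of single genes, 0 changed sign and 22 moved by more than 1.5 times. Those of KLF2 and KLF4 could not change sign, as their reported difference was 0. Leaving out KLF16 could not change the values of the other genes. No paired analysis was possible because each group holds 1 library. An absence means only that no peak was called: a Vector-library peak had at least 8 fragments, and an ERG-library peak at least 9. The part of depth in the absences was not tested.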
